A study of Caenorhabditis elegans with 34 samples.

Results

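The 6 vitellogenin genes of Caenorhabditis elegans, vit-1 to vit-6, were followed from day 1 to day 12 of life in read counts from whole animals. They were taken as the genes whose symbol is vit-1, vit-2, vit-3, vit-4, vit-5 or vit-6, and all 6 were present among the 20222 genes counted. Vitellogenins are large lipid-binding lipoproteins, the precursors of the yolk proteins. In the adult hermaphrodite they are made in the intestine, secreted into the body cavity and taken up by growing oocytes through the receptor RME-2. The genes vit-1 to vit-5 encode the large yolk proteins, and vit-6 encodes a precursor that is cut into the smaller ones. They are known as genes of the adult hermaphrodite intestine, silent in larvae and in males.

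The study measured how the transcriptome of ageing worms changed from day to day. All 34 samples carried the temperature-sensitive allele spe-9(hc88), which leaves the sperm of hermaphrodites unable to fertilise at the restrictive temperature, and all were grown at 25 °C on OP50 bacteria. Animals were synchronised by hypochlorite treatment, and a plate of animals was collected each day in each of 3 runs of the experiment. Each sample was therefore a pooled, unsorted population of whole animals, and a group was a day of life: 10 days had 3 samples, and days 8 and 12 had 2 samples each. The control and comparison groups were other days of the same strain, so no sample lacked spe-9(hc88).

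Reads assigned to genes summed to 19202058 to 27587987 per library, with a median of 21606958.5. Levels are given as CPM, each gene's count scaled to a common library size after correcting that size by the trimmed mean of M-values (TMM), and, for comparison between genes, as CPM per kilobase of exon. On day 1 the summed level of 10 markers of oocytes and the hermaphrodite germline was 50.6 to 89.1 CPM, against 9608 to 10068 CPM on day 2. The larval cuticle collagen rol-6 averaged 2093 CPM on day 1 and 0.0566 CPM on days 2 and 3, and the adult cuticle collagen col-19 averaged 0.352 and 929 CPM. The 9 intestinal markers summed to 6244 to 8769 CPM on day 1, 1486 to 2185 CPM on day 2 and 516 to 778 CPM on day 12, so the tissue that makes yolk was detected in every library. CPM is relative to the library. In these bulk samples, fewer cells of a type, less RNA per cell and more RNA from other tissues cannot be told apart.

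In several libraries the vitellogenin counts stood apart from the other libraries of the same day. After the values were seen, 4 of them were chosen to be left out as an alternative: day 3 replicate 3, day 4 replicate 2 and day 5 replicate 3, which were low, and day 8 replicate 2, which was high. Day 7 replicate 3, day 9 replicate 2 and day 11 replicate 1 were also high for their days and were left out only one at a time. In day 5 replicate 3 other transcripts were also low. Its rme-2 level was 311 CPM against 1210 and 991 CPM in the other libraries of that day, its intestinal markers summed to 531 CPM against 1242 and 2433 CPM, and its TMM factor was 1.23 against 1.00 and 0.93. In day 4 replicate 2, rme-2 stood at 557 CPM against 1435 and 1244 CPM, and in day 3 replicate 3 at 1069 CPM against 1702 and 1851 CPM. In day 8 replicate 2, the library with the high vitellogenin counts, rme-2 was at 736 CPM against 921 CPM in the other library. The part of these differences in the results was not tested. The age trend, the early groups of days, the spread within days and the correlations between members are given with and without the libraries concerned.

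On WBcel235, 5 of the 6 genes lie on the X chromosome, and vit-6 lies on chromosome IV. vit-2 (WBGene00006926) spans bases 5101042 to 5106169 of the plus strand, with 5 exons and 4934 bases of exon. vit-1 (WBGene00006925) spans bases 7727889 to 7733168 of the plus strand, with 5 exons and 5088 bases of exon. The other X-linked members lie within a single stretch of the chromosome. vit-5 (WBGene00006929) spans bases 3403471 to 3408603 of the plus strand with 6 exons, and vit-4 (WBGene00006928) and vit-3 (WBGene00006927) follow on the minus strand at bases 3558769 to 3563965 and 3567355 to 3572549, also with 6 exons each. The gap between vit-4 and vit-3 is 3389 bases, and the gap between vit-5 and vit-4 is 150.16 kb. vit-6 (WBGene00006930) spans bases 8261157 to 8266459 of the plus strand of chromosome IV, with 5 exons, 5064 bases of exon and 2 annotated transcripts.

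The family holds near-identical copies, of which the vit-3 and vit-4 pair is the closest known, and reads from a stretch shared by both copies can be dropped or split by the counting, so levels of single members are less certain than their sum. The annotation also places the antisense gene C42D8.9 over vit-2 and non-coding genes over vit-3 and vit-4. C42D8.9 had a median of 2 and a highest value of 19 counts per library. Without a stated strand setting, reads from a gene and its antisense partner cannot be told apart.

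All 6 vitellogenin genes went from almost no reads on day 1 to the level of highly expressed genes on day 2. This comparison asked how far transcript levels of the family differed between day 1, with its larval collagen, and day 2, with its oocyte transcripts. On day 1, vit-6 had 6, 16 and 6 counts in replicates 1, 2 and 3, and vit-1 had 3, 0 and 20 counts. vit-2 had 0, 6 and 2 counts, vit-3 had 0, 3 and 1, and vit-5 had 0, 4 and 0. vit-4 was represented by a single count, in replicate 2. No member stood above 20 counts in any day 1 library, and the whole family took at most 0.000137% of the reads.

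On day 2 vit-6 was at 16350.2, 14444 and 12949 CPM in the 3 replicates, and vit-2 was at 15645, 13519 and 13109.6 CPM. vit-5 was at 11190.3, 10647 and 9111 CPM, vit-4 at 8391, 7562 and 7238 CPM, and vit-3 at 7576, 7244 and 6756 CPM. vit-1 was the lowest member, at 4133, 4295 and 3657 CPM. The replicates of day 2 lay close together, with a ratio of highest to lowest of 1.12 to 1.26 over the 6 genes.

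By edgeR's quasi-likelihood test with Benjamini-Hochberg adjustment at a threshold of 0.01, 37.5% of the 13785 genes tested rose and 37.9% fell, and the 6 members were among those that rose. The members passed the filter on low counts only through the days on which they are high, so this call adds nothing to the counts themselves, and with only the samples of days 1 and 2 in the fit vit-6 alone was tested. Fitted log2 fold changes ran from 13.13 to 18.26, sizes that depend on the few counts of day 1. The ratio of pooled reads, with an exact 95% interval that covers counting error only, was 9209 (6137 to 14527) for vit-1. It was 92319 (46853 to 213836) for vit-2, and all 6 intervals began at 6137 or higher. Leaving out day 1 replicate 3, the library with 20 counts, moved the fitted value of vit-1 to 15.46, and leaving out day 1 replicate 2 moved it to 12.50.

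**Figure D1:**
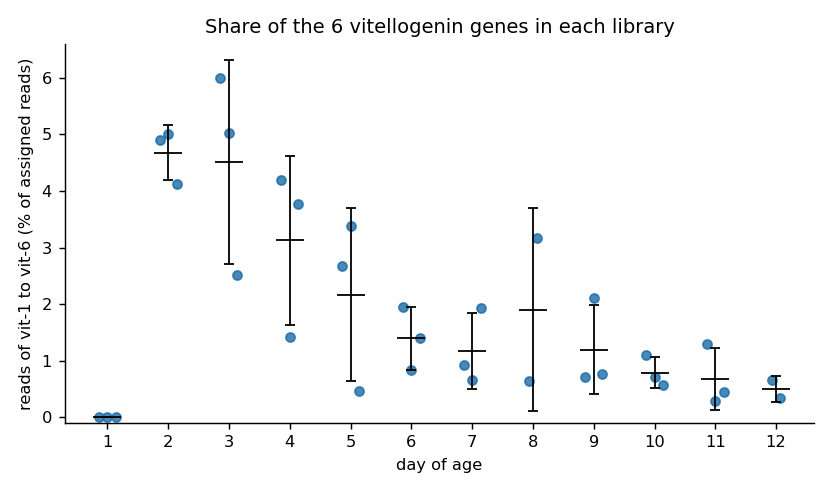
Share of all assigned reads (percent, y axis) taken by the 6 vitellogenin genes together in each library by day (x axis), with points for libraries and black bars for the mean and SD of each day. The 3 libraries of day 2 sit between 4.13% and 5.00%, and the 2 libraries of day 12 at 0.656% and 0.335%.

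The family as a whole took the largest part of the library on days 2 and 3 and a small part at the end of the course. On day 2 it held 4.91%, 5.00% and 4.13% of the assigned reads, and on day 3 it held 6.00%, 5.03% and 2.51%. On day 5 the shares were 2.67%, 3.38% and 0.457%, and on day 6 they were 1.95%, 0.838% and 1.39%. The third replicate of day 5 already lay below every library of day 6. The shares on day 7 were 0.914%, 0.651% and 1.93%, and those on day 8 were 0.634% and 3.17%, the last in the library that stood apart. On day 11 the shares were 1.30%, 0.277% and 0.448%. On day 12, at 0.656% and 0.335%, both libraries lay below every library of days 2 to 4. The mean share was 4.68% ± 0.480 (SD, n = 3) on day 2, 2.17% ± 1.52 (n = 3) on day 5, or 3.02% without replicate 3, 1.16% ± 0.674 (n = 3) on day 7 and 0.496% ± 0.227 (n = 2) on day 12.

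Within the family, vit-6, vit-2 and vit-5 had the highest levels per kilobase and vit-1 the lowest. On day 2 vit-6 was at 2879 ± 337 CPM per kb (SD, n = 3) and vit-2 at 2856 ± 276, which differed by less than their spread. vit-5 followed at 2118 ± 221, then vit-4 at 1566 ± 121 and vit-3 at 1461 ± 83.8, which again differed by less than their spread, and vit-1 at 792 ± 65.2 CPM per kb. In rank among all genes by day mean CPM per kb, the members stood at places 69 (vit-6), 70 (vit-2), 101 (vit-5), 142 (vit-4), 150 (vit-3) and 227 (vit-1) on day 2. On day 12 vit-2 was at place 287, vit-6 at 377 and vit-5 at 383, but vit-4 was at 3127, vit-3 at 3729 and vit-1 at 5963. Over the 31 libraries of days 2 to 12, the highest level per kilobase belonged to vit-2 in 25, to vit-6 in 5 and to vit-5 in 1, and the lowest belonged to vit-1 in 31 of 31.

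**Figure D2:**
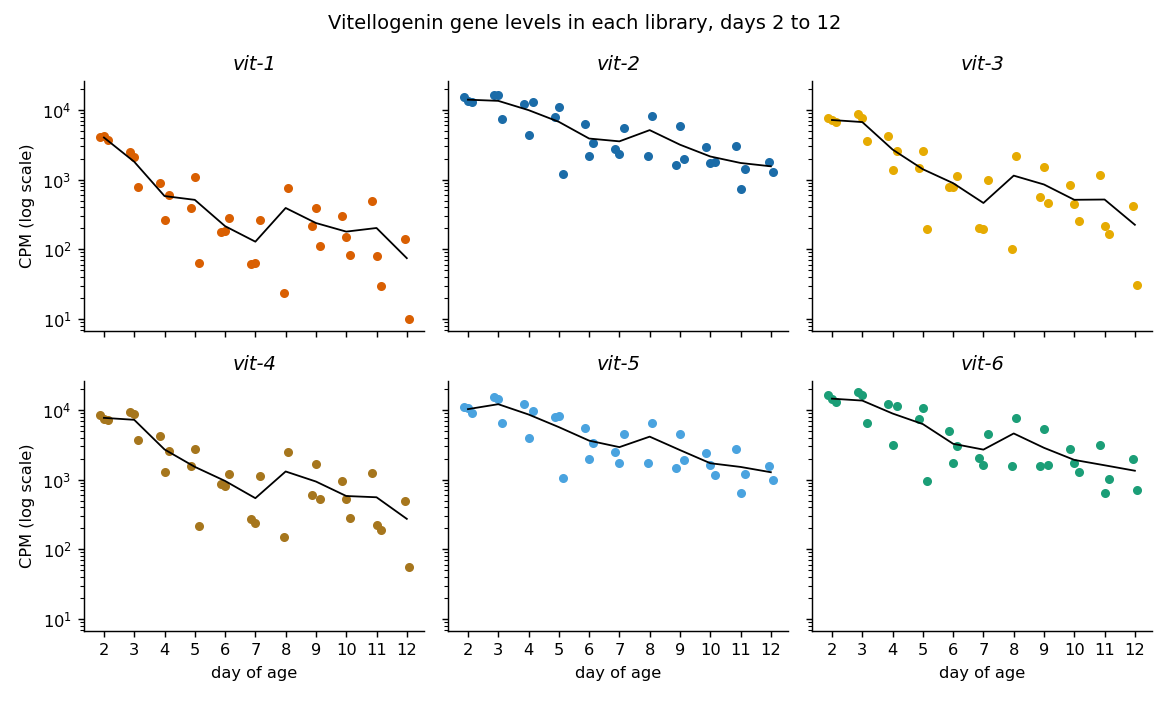
Level of each vitellogenin gene (CPM on a log axis, y) by day (x), with a point per library and a line through the day means, for the 31 libraries of days 2 to 12. All 6 genes fall over the course, with vit-1 ending lowest at 139 and 9.82 CPM on day 12.

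All 6 genes fell with age between day 2 and day 12, and none rose. vit-2 averaged 14091 CPM on day 2, 6773 CPM on day 5, 3551 CPM on day 7 and 1555 CPM on day 12, which was 11.0% of its day 2 mean. vit-5, which was at 10316 CPM on day 2 and 12149.8 CPM on day 3, reached 1279.7 CPM on day 12, or 12.4% of day 2. vit-6 ended at 9.22% of its day 2 mean. The other members ended lower still: vit-4 at 3.54%, vit-3 at 3.13% and vit-1 at 1.85% of their day 2 means.

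In the day means, the course of vit-1 was the steepest at the start. Its mean was 4028 ± 332 CPM (SD, n = 3) on day 2, 1809 ± 913 on day 3 and 581 ± 309 on day 4. By day 6 it was at 215 ± 59.3 CPM. Between days 2 and 3 the means of vit-2, vit-3, vit-4 and vit-6 differed by less than the spread of day 3: vit-3, for example, was at 7192 ± 413 and 6717 ± 2762 CPM. For vit-1 the 3 libraries of day 3 were at 2504, 2148 and 776 CPM. The lowest of them was replicate 3, which stood apart. The step did not pass the threshold for vit-1 (log2 difference -1.15, edgeR adjusted p-value 0.56).

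Fitted as a third-degree polynomial of age over the 31 libraries of days 2 to 12, the linear coefficient of all 6 genes was negative and past the threshold, against 33.9% of the 13865 genes tested that fell and 36.9% that rose. Any of the 3 coefficients passed in 80.3% of genes. As a slope on the log2 scale, it was -0.44 ± 0.074 per day (SE) for vit-3, -0.43 ± 0.078 for vit-1 and -0.43 ± 0.070 for vit-4. For vit-6 the slope was -0.35 ± 0.053, and for vit-2 and vit-5 it was -0.33 ± 0.046 each. The adjusted p-values by edgeR's quasi-likelihood test ran from 1.04e-07 (vit-5) to 8.7e-06 (vit-1). The median slope of all genes was 0.0063. Ordered from the most negative slope, the members stood at places 126 (vit-3), 144 (vit-1), 150 (vit-4), 322 (vit-6), 372 (vit-2) and 378 (vit-5) of the genes tested. None of the 6 passed the threshold for curvature, where 33.2% of genes passed for the quadratic and 11.0% for the cubic coefficient, and the smallest adjusted p-value of a quadratic coefficient was 0.044, for vit-1, by the same edgeR test. No single library left out changed a call. Without the 4 libraries that stood apart the slopes were -0.36 to -0.47, but those libraries were chosen by their vitellogenin counts, low early and high later, and their removal can only steepen the fall. With library size alone in place of TMM the median slope of all genes moved to 0.0497, and the 6 genes still fell, with slopes of -0.40 (vit-3) to -0.29 (vit-5).

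**Figure D3:**
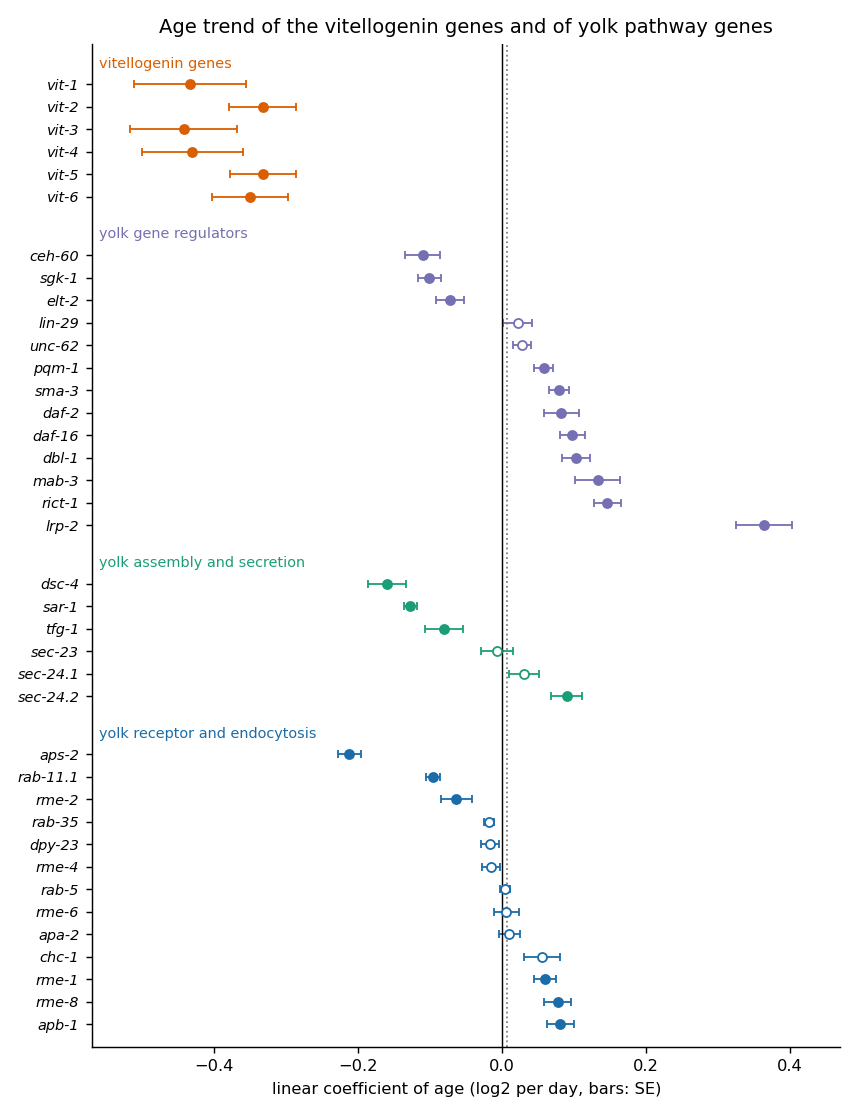
Slope with age (log2 per day, x axis) of the 6 vitellogenin genes and of the 3 lists of yolk pathway genes over days 2 to 12, with bars for the standard error, filled points for genes past the threshold and a dotted line at the median of all genes. The vitellogenin genes lie between -0.44 and -0.33, below every other gene drawn, and lrp-2 lies highest at 0.36. Of the intestinal markers, elt-2 alone is drawn.

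From one day to the next no member passed the threshold after day 2. For each of the 10 steps from day 3 against day 2 to day 12 against day 11, edgeR's quasi-likelihood test called 0 of 6 genes, with 0 at an unadjusted p under 0.05 and 0 by DESeq2. The background was low as well. Of all genes, 1.41% rose and 1.65% fell from day 2 to day 3, 1.22% rose and 0.102% fell from day 3 to day 4, 2.36% rose and 0.218% fell from day 4 to day 5, and 0.0508% rose and 0.0% fell from day 5 to day 6. In the later steps 0.0% of genes were called in either direction. The smallest adjusted p-value of a member was 0.433, for vit-4 from day 3 to day 4, by the same edgeR test. From day 7 to day 8 the fitted log2 difference was 0.50 to 1.61 higher for the 6 genes, without passing the test. Day 8 includes the high library, and in its other library all 6 genes lay below their day 7 means.

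Groups of days gave larger differences. They asked how far levels differed between early (days 2 and 3), middle (days 6 and 7) and late (days 11 and 12) libraries, and the 3 comparisons share samples. Over the 6 libraries of days 2 and 3, vit-1 had a lowest, median and highest level of 776, 3080.4 and 4295 CPM. Over the 6 libraries of days 6 and 7 it had 61.9, 181 and 283 CPM, and over the 5 libraries of days 11 and 12 it had 9.82, 79.6 and 497 CPM. The early libraries of vit-1 all lay above the middle ones, while the late libraries spread across the middle range and beyond it on both sides.

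For vit-2 the lowest, median and highest levels were 7334, 14582 and 16668 CPM early, 2157, 3051 and 6221 CPM in the middle, and 726, 1422 and 3062 CPM late. For vit-5 they were 6604, 10919 and 15602 CPM early, 1709.9, 2919.7 and 5559 CPM in the middle, and 633, 1220.3 and 2720.4 CPM late. For vit-6 they were 6435, 15397 and 17936 CPM early, 1604, 2519 and 5068 CPM in the middle, and 643, 1038 and 3151 CPM late. In each of these 3 genes the late libraries overlapped the middle ones but lay lower in their median.

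For vit-3 the lowest, median and highest levels were 3578, 7410.1 and 8776 CPM early, 195, 780.1 and 1110.3 CPM in the middle, and 30.6, 219 and 1171 CPM late. For vit-4 they were 3659, 7976 and 9418 CPM early, 242, 837 and 1202 CPM in the middle, and 55.9, 222 and 1263 CPM late. The highest late library lay above the highest middle library in both genes. That library was day 11 replicate 1.

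From early to middle days all 6 genes fell, against 23.6% of all genes. The log2 fold change was -4.02 ± 0.82 (SE) for vit-1, -3.44 ± 0.72 for vit-3 and -3.38 ± 0.68 for vit-4. For vit-6 it was -2.25 ± 0.53, for vit-2 -1.89 ± 0.47 and for vit-5 -1.78 ± 0.46. These are 16.3-fold for vit-1 and 3.43-fold for vit-5 at the ends of the range. The adjusted p-values by edgeR's quasi-likelihood test ran from 1.28e-04 to 1.66e-03, and early and middle libraries did not overlap in 6 of 6 genes, where 16.7% of all genes were lower in the older group without overlap. Without day 3 replicate 3 the values ran from -4.21 (vit-1) to -1.93 (vit-5). With all samples of replicate number 1 or all of number 2 left out, the call was kept by vit-1, vit-3 and vit-4 and lost by vit-2, vit-5 and vit-6.

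From middle to late days none of the 6 genes passed the threshold, where 11.5% of all genes fell and 9.6% rose. edgeR's quasi-likelihood test gave 0 of 6 calls, with 2 of 6 at an unadjusted p under 0.05 and 0 by DESeq2. The fitted log2 differences were -1.23 ± 0.49 (SE) for vit-5, with the smallest adjusted p-value of 0.0523, and -1.18 ± 0.49 for vit-2. They were -1.02 ± 0.55 for vit-6, -0.91 ± 0.71 for vit-3, -0.88 ± 0.67 for vit-4 and -0.44 ± 0.78 for vit-1. All 6 genes overlapped between the groups, where 9.8% of all genes were lower without overlap. For vit-1 a single library decided the value: it was 0.08 without day 7 replicate 3 and -1.90 without day 12 replicate 1.

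Between early and late days all 6 genes fell again, against 28.7% of all genes. The log2 fold changes were -4.46 ± 0.95 (SE) for vit-1, -4.35 ± 0.85 for vit-3 and -4.26 ± 0.80 for vit-4. They were -3.26 ± 0.62 for vit-6, -3.07 ± 0.54 for vit-2 and -3.003 ± 0.54 for vit-5, or 22.0-fold lower for vit-1 and 8.02-fold lower for vit-5. The adjusted p-values by edgeR's quasi-likelihood test ran from 1.85e-05 to 1.74e-04, and the groups did not overlap in 6 of 6 genes, where 25.3% of all genes were lower without overlap. Without day 12 replicate 1 the values of vit-1, vit-3 and vit-4 were -5.92, -5.79 and -5.40, and without the second sample of day 12 they were -4.01, -3.90 and -3.84. Without day 3 replicate 3 the 6 values ran from -4.65 (vit-1) to -3.16 (vit-5).

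**Figure D4:**
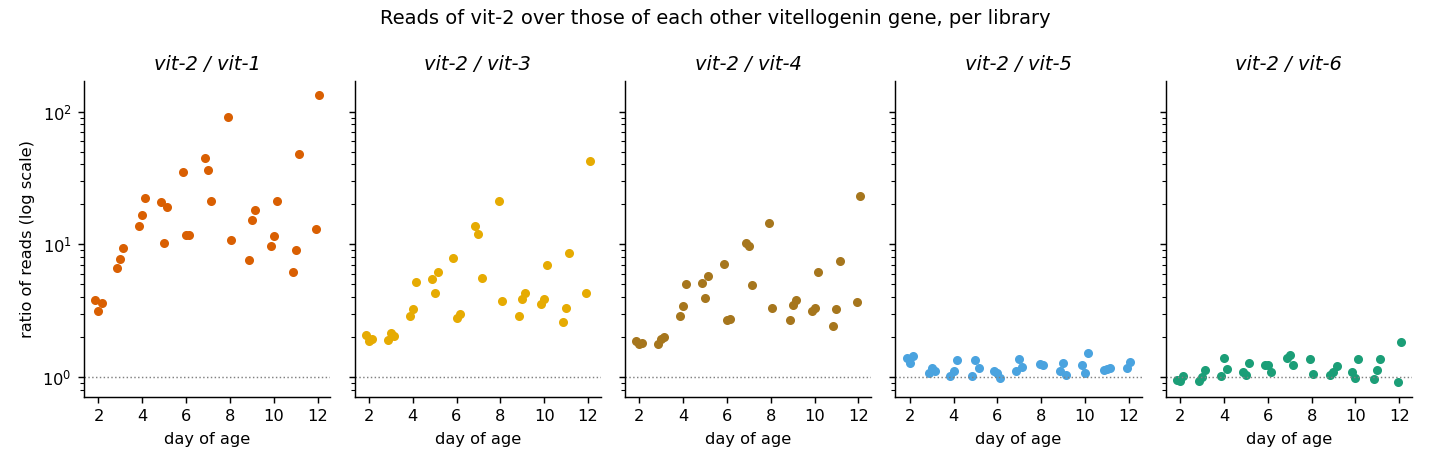
Ratio of vit-2 reads to the reads of each other member within the same library (log axis, y) by day (x), with a point per library and a dotted line at 1, for days 2 to 12. The ratio of vit-2 to vit-1 runs from 3.15 to 132.5, while the ratio of vit-2 to vit-5 stays between 0.989 and 1.52.

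The make-up of the family differed between the first days and later ones, without a steady course after day 4. Since both genes of a ratio come from the same library, these values do not depend on the scaling, and they are described without a test. On day 2 there were 3.51 ± 0.326 reads (SD, n = 3) of vit-2 for each read of vit-1. The mean ratio was 7.96 on day 3, 17.6 on day 4, 16.6 on day 5, 19.5 on day 6 and 34.2 on day 7. It was 51.2 on day 8, 13.7 on day 9, 14.1 on day 10, 20.98 on day 11 and 72.8 on day 12. In single libraries it ran from 3.15 on day 2 to 132.5 in the second sample of day 12. The ratio was higher in the mean of every later day than on day 2, but the means of days 9 to 11 were close to or below those of days 4 to 6, and libraries of one day differed widely.

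The ratio of vit-2 to vit-3 was 1.96 ± 0.1005 on day 2 and ranged from 1.87 to 42.6 over the 31 libraries. Its means were 3.79 on day 4, 10.4 on day 7, 3.69 on day 9 and 4.86 on day 11. The ratio of vit-2 to vit-4 ranged from 1.77 to 23.3. In contrast, vit-2 to vit-5 ranged only from 0.989 to 1.52 and vit-2 to vit-6 from 0.912 to 1.85. vit-4 to vit-3, the pair of close copies, ranged from 0.952 to 1.83. The mean of vit-2 to vit-5 was 1.37 on day 2 and 1.06 to 1.28 on later days. That of vit-2 to vit-6 was 0.97 on day 2 and 1.02 to 1.38 later. Thus the proportion to vit-2 changed less in vit-5 and vit-6 than in vit-1, vit-3 and vit-4, where it was lower on later days. This division was made after the values were seen. The division does not follow the chromosomes, as vit-6 lies on chromosome IV and vit-5 lies on X with vit-1, vit-3 and vit-4. Reads of vit-1, vit-3 and vit-4 together were 32.8% ± 0.878 (SD, n = 3) of the family's reads on day 2, 28.5% on day 3, 18.3% on day 4, 14.5% on day 5, 17.96% on day 6 and 9.64% on day 7. The share was 12.1% on day 8, 19.3% on day 9, 17.1% on day 10, 18.3% on day 11 and 9.75% on day 12, so it stayed below the level of days 2 and 3 in the means but did not fall further after day 7.

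On day 8 the 2 libraries differed in this division. In replicate 1, with a family share of 0.634%, vit-1 was at 23.5 CPM, vit-3 at 101 CPM and vit-4 at 150 CPM, and the 3 made up 4.80% of the family's reads. In replicate 2, with a share of 3.17%, they were at 760.2, 2184 and 2474 CPM and made up 19.5%. vit-2 was at 2157 and 8138 CPM in the same libraries, a smaller difference. On day 12, vit-1 was at 139 and 9.82 CPM and vit-3 at 419 and 30.6 CPM, whereas vit-2 was at 1809 and 1302 CPM. Other days went the other way. On day 6 vit-1, vit-3 and vit-4 made up 22.9% in replicate 2, with a family share of 0.838%, and 9.84% in replicate 1, with 1.95%. On day 11 they made up 20.6% in replicate 2, with a share of 0.277%, and 9.48% in replicate 3, with 0.448%.

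**Figure D5:**
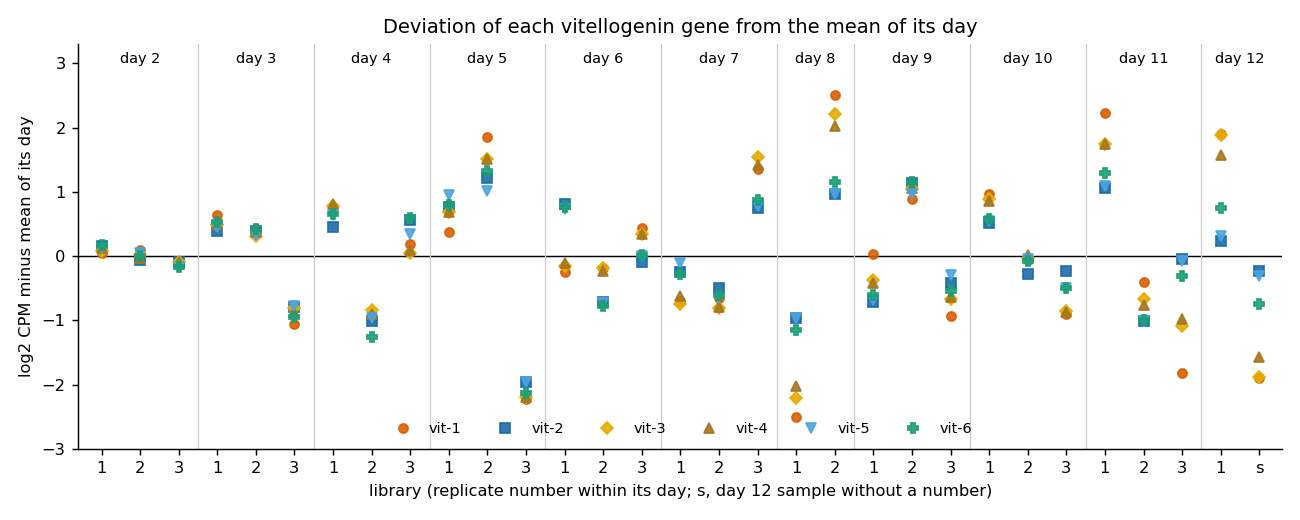
Deviation of each vitellogenin gene from the mean of its day (log2 CPM, y axis) in each library of days 2 to 12 (x axis), with a symbol per gene. The 6 genes move together in most libraries, from -2.22 to -1.96 in day 5 replicate 3.

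Libraries of the same day differed more in the vitellogenin genes than in most other genes. The standard deviation within a day on the log2 scale was 1.53 for vit-1, 1.39 for vit-3 and 1.31 for vit-4, which took places 13, 19 and 26 from the largest among 13785 genes. It was 1.05 for vit-6, 0.92 for vit-2 and 0.91 for vit-5, at places 103, 191 and 199. The median gene had 0.32. Without the 4 libraries that stood apart, which were chosen by these genes, it was 1.21 for vit-1 and 0.65 for vit-5 (places 36 and 842) and 0.26 for the median gene. The spread was smallest on day 2 and uneven later. Over the 6 genes, the ratio of the highest to the lowest library of a day was 1.12 to 1.26 on day 2. It was 7.87 to 16.9 on day 5, 3.77 to 32.3 on day 8 and 4.22 to 16.7 on day 11. On other later days it was smaller, such as 1.44 to 2.90 on day 6 and 1.73 to 3.63 on day 10.

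The 6 genes deviated from the mean of their day together. On day 5 vit-2 was at 8069, 11029 and 1223 CPM, vit-6 at 7328, 10583 and 959.8 CPM, and vit-1 at 389, 1085 and 64.2 CPM, so replicate 3 was the lowest in each. On day 11 vit-1 was at 497, 79.6 and 29.8 CPM and vit-2 at 3062, 726 and 1422 CPM. Replicate 1 was the highest in both genes, but the lowest library was replicate 3 for vit-1 and replicate 2 for vit-2. Of the 27 libraries on days with 3 samples, all 6 genes were below the mean of the day in 11, all above it in 11 and on both sides in 5. All 6 genes had the same lowest library on 6 of 11 days and the same highest library on 7 of 11.

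Across the 31 libraries of days 2 to 12, which share age and depth, the correlation of log2 CPM between members was 0.87 to 1.00 over the 15 pairs. For deviations from the mean of the day it was 0.77 to 1.00. Pairs within vit-1, vit-3 and vit-4 and pairs within vit-2, vit-5 and vit-6 had values of 0.98 or above, and the lowest value was that of vit-1 with vit-2. Without the 4 libraries that stood apart the correlations were 0.86 to 1.00, and 0.60 to 1.00 for deviations. The highest was that of vit-3 with vit-4, whose reads can be shared between the copies.

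Genes known to act in yolk production and uptake rose in some cases and fell in others over the same days. Beside the counts below, 36.9% of all genes tested rose and 33.9% fell with TMM. With library size alone the median slope of all genes was 0.0497. For that scaling the median slope of each list is given. Of 13 genes for regulators of yolk gene expression, 8 rose with age, 3 fell and 2 did not pass the threshold, and the median slope was 0.08 per day on the log2 scale, against 0.0063 over all genes. With library size alone in place of TMM, the median slope of the 13 genes was 0.12. With TMM the count of falling genes was not above the share of all genes. The largest rise was that of lrp-2, a member of the low-density lipoprotein receptor family, with a slope of 0.36 and levels of 12.7 CPM on days 2 and 3 and 79.7 CPM on days 11 and 12. rict-1, which encodes a subunit of the TOR complex 2, rose from 110 to 238 CPM with a slope of 0.15. mab-3, which encodes the factor that represses vitellogenin genes in males, rose from 0.464 to 0.951 CPM with a slope of 0.13.

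The regulators elt-2 and ceh-60 stood at lower levels than unc-62 on days 2 and 3 and on days 11 and 12. elt-2, which encodes the main intestinal GATA factor, was at 76.4 CPM on day 1, 8.72 ± 1.99 CPM (SD, n = 6) on days 2 and 3, and 5.67 ± 1.43 CPM (n = 5) on days 11 and 12. Its slope was -0.07, a call that was lost with library size alone. ceh-60, which encodes a homeodomain factor of the PBX family, was at 4.07 ± 0.77 CPM and 2.09 ± 0.63 CPM on the same days, with a slope of -0.11 whose call was also lost with library size alone. unc-62, its partner of the Meis family, was at 47.3 and 50.6 CPM and did not pass the threshold (slope 0.03, edgeR adjusted p-value 0.053). From day 1 to day 2, when the vitellogenin genes rose, elt-2 fell by 2.96 and ceh-60 fell by 1.14 on the log2 scale. Of the 13 regulators 8 fell in this step, 2 rose (rict-1 and daf-2) and 3, among them unc-62, did not pass. Of all genes 37.9% fell and 37.5% rose. Of the 9 intestinal markers, which include elt-2, 7 fell and 2 did not pass, with a median log2 difference of -2.45. Whether elt-2 or ceh-60 fell beyond the other intestinal transcripts was not tested.

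Of 6 genes for the assembly and secretion of lipoproteins, 1 rose, 3 fell and 2 did not pass, with a median slope of -0.04. The shares of all genes that rose and fell were 36.9% and 33.9%. With library size alone the median slope of the 6 genes was 0.003, where that of all genes was 0.0497. dsc-4, which encodes the large subunit of the microsomal triglyceride transfer protein that loads lipid onto vitellogenin, was at 195 CPM on day 1, 23.6 CPM on days 2 and 3 and 7.28 CPM on days 11 and 12, with a slope of -0.16. sar-1, the GTPase of the COPII coat that carries cargo out of the endoplasmic reticulum, fell from 303 to 145 CPM with a slope of -0.13. tfg-1, a factor of endoplasmic reticulum exit sites, was at 310 and 182 CPM, and its call was lost with library size alone. sec-24.2, a cargo adaptor of the same coat, rose from 106 to 154 CPM with a slope of 0.09.

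Of 13 genes for the yolk receptor and endocytosis, 3 rose, 3 fell and 7 did not pass, with a median slope of 0.00, so that neither direction exceeded its share among all genes. With library size alone the median slope of the 13 genes was 0.0480, where that of all genes was 0.0497. rme-2, the oocyte receptor for yolk, was at 0.403 CPM on day 1, 1480.3 ± 275 CPM (SD, n = 6) on days 2 and 3 and 971 ± 87.6 CPM (n = 5) on days 11 and 12. From day 1 to day 2 its fitted log2 difference was 11.77 ± 0.55 (SE), and like the vitellogenin genes it had almost no reads on day 1. Its slope afterwards was -0.06 (edgeR adjusted p-value 0.0081), a call lost with library size alone. aps-2, which encodes the small subunit of the AP2 adaptor, fell from 36.9 to 11.7 CPM, and rab-11.1, a GTPase of recycling endosomes, fell from 638 to 347 CPM. apb-1, a beta subunit of adaptor complexes, rose from 104 to 154 CPM, and rme-8, a J-domain protein of endosomes, rose from 97.8 to 124 CPM.

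Markers of several tissues moved beside the family over days 2 to 12, where 33.9% of all genes fell and 36.9% rose. These shares are for TMM, and with library size alone the median slope of all genes was 0.0497. All 9 intestinal markers fell, with a median slope of -0.17, or -0.13 with library size alone. The steepest were act-5 and pho-1 at -0.30 each and vha-6 and ges-1 at -0.29 each. The calls of elt-2 and elt-7 were lost with library size alone. Of the 10 markers of oocytes and the hermaphrodite germline 6 fell, 0 rose and 4 did not pass. With library size alone their median slope was -0.005, and the calls of rme-2, oma-1 and mex-3 were lost. Outside the tissues that make and take up yolk, 2 of 3 markers of body wall muscle fell, namely the myosin heavy chain unc-54 with a slope of -0.28 and the paramyosin unc-15 with -0.16, and with library size alone the remaining marker rose. The cuticle collagen col-19 fell with a slope of -0.64, from 929 CPM on days 2 and 3 to 14.6 CPM on days 11 and 12. On the same days dpy-7 rose at low levels, from 0.296 to 1.23 CPM. Of the 4 neuronal markers 2 fell, among them unc-119 with a slope of -0.16, and 1 rose. Their median slope was -0.02. With library size alone it was 0.02, and the call of snb-1 was lost. Of the 4 sperm markers tested 3 rose, among them gsp-3 with a slope of 0.42 and gsp-4 with 0.37, and their summed level did not exceed 46.1 CPM in any library. The part of any of these tissues in the fall of the vitellogenin genes was not tested.

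The genes whose course over the 31 libraries was most like that of the family were found by the correlation of log2 CPM with the mean standardised level of the 6 members, over 9083 other genes with at least 100 counts on average. The median correlation was 0.09. gfi-1, bcf-1 and Y39B6A.1 had correlations of 0.96 each, and F28B4.3 had 0.95. Y16B4A.2 and Y51H7C.1 had 0.94, C12D12.1 had 0.93, and ctsa-1.2, which encodes a serine carboxypeptidase related to cathepsin A, had 0.93. gfi-1 stood at 408 CPM on days 2 and 3 and 30.95 CPM on days 11 and 12, and bcf-1 stood at 432 and 33.8 CPM. For deviations from the day means their correlations with the family were 0.98 and 0.97. These deviations are part of the values by which the genes were chosen, so they add no separate evidence. The least like were F26A3.1 at -0.92 and F16B4.2, cal-1 and allo-1 at -0.90. With day 1 included, 0 of the 8 most like genes remained among the first 8. Their correlations then ran from -0.42 (Y16B4A.2) to 0.89 (Y51H7C.1), with -0.18 for both gfi-1 and bcf-1.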

How the data were processed

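The deposited values were raw read counts per gene for 34 libraries, made by the authors with STAR 2.7.3a and featureCounts on WBcel235 according to the submitters' processing notes. Strand and multimapping settings are not given in the sources used here. Gene symbols, exon lengths and coordinates came from an Ensembl annotation of the same build. A transgene entry holding at most 0.00124% of reads was kept out. A day 12 column whose number matches no label was used as a day 12 sample without a replicate number.

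The study's model has a sequencing batch term, which was left out because batches are not named for these samples. A gene entered a fit if 75% of its libraries held 5 or more reads, and was tested with edgeR 4.0.16 (R 4.3.3; TMM, quasi-likelihood) and adjusted by Benjamini-Hochberg over all genes tested, with a threshold of 0.01. Age was fitted as a polynomial of degree 3 over days 2 to 12, and day as a factor over all libraries gave 11 day-to-day and 3 stage comparisons. The fits were tested on simulated data. Log2 CPM used a prior count of 2. DESeq2 1.42.0, other scalings, filters and left-out libraries were alternatives.

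The members and gene lists were chosen with earlier results of these data known. Named genes were all members, rme-2, dsc-4, elt-2, unc-62 and ceh-60, up to 4 genes per list past the threshold with the largest linear coefficients, and the 8 most and 4 least like genes. No pair of libraries had identical counts. Intervals cover counting error only, since reads without molecular identifiers are not independent molecules.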

Additional observations from a re-analysis of the deposited data

How the results depend on the processing

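The fall of all 6 genes over days 2 to 12 was kept under every scaling, filter, test and left-out library tried, except with day 1 in the polynomial, where 0 of the 6 passed (-0.15 to -0.38 per day, edgeR adjusted p-values 0.016 to 0.25), and 0 of the 8 most like genes were shared. For days 6 and 7 against days 2 and 3, leaving out every sample of a replicate number gave 3 to 6 falling genes. For days 11 and 12 against days 6 and 7, taking out the trend with transcript length gave 2 falling genes (vit-2 at -1.42 and vit-5 at -1.46), and leaving out a replicate number gave vit-1 a value of -3.08 to 0.45, the latter without replicate 3. With only the samples of days 1 and 2 in the fit, 1 gene rose, since only vit-6 then passed the filter on low counts. Of 909 alternative values, 888 were classed as the same. For a value of a single gene this meant the same direction and side of the threshold. For a count of genes it meant an equal count or a ratio of at most 1.5, so a count could change somewhat and still be classed as the same. Counts that stayed at 0 are included.

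Of 166 same-numbered pairs, 36 (21.7%) had a correlation of deviations above 0.1. The mean was 0.017, against -0.0082 for pairs of other numbers. On average 12 of 33 samples were closest to their own number. The sources used here tie no replicate number to a run, so whether libraries of a run were independent was not tested. With the replicate block, 6 genes fell, with slopes of -0.33 to -0.43, 11154 genes changed against 11139 without it, and no call of a member changed. Of the 60 day-to-day values after day 2, at 2 or 3 samples a day, 25 turned direction without replicate 2. On day 1, with 0 to 20 reads per gene, the size of the rise is limited by depth.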

Other observations

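Genes next to the vitellogenin genes were read after the values above were seen, and 7 of them had enough counts to be tested. rgs-7, a regulator of G protein signalling that lies 985 bases from vit-4, was at 59.7 CPM on days 2 and 3 and 47.5 CPM on days 11 and 12, with a slope of -0.03 per day on the log2 scale that missed the threshold (edgeR adjusted p-value 0.037). Among libraries of the same day its deviations had a correlation of 0.82 with those of the family. This was the highest value of the 7, and the share of all genes that reach it was not counted. spp-14, 1505 bases from vit-1, fell with a slope of -0.35, from 574 to 84.0 CPM, but its deviations had a correlation of 0.20. unc-78, 70 bases from vit-5, fell with a slope of -0.03 and had a correlation of 0.17. Its slope was smaller in size than the 0.043 by which library size alone moved the median slope of all genes. For the other neighbours tested the correlation ran from -0.41 to 0.16.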
